A study of Homo sapiens with 14 samples.

Results

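Expression of 38 genes of glucose use was followed along the path that leads from human pluripotent stem cells (hPSCs) through pancreatic progenitors to β-like cells. The genes encode glucose and lactate carriers, the enzymes of glycolysis and their regulators, the kinases that hold back pyruvate oxidation, and enzymes of gluconeogenesis. They were taken by gene symbol, and all 38 were found among the 60624 Ensembl gene identifiers listed in each library. All 38 are annotated as protein-coding.

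The samples were 14 RNA sequencing libraries in 9 groups, all from MEL1, a human embryonic stem cell line. The study's methods name it MEL1 INS GFP/W, a reporter line with GFP targeted to the INS locus, which all groups share. Batch 1 held 1 library each of undifferentiated hPSCs grown on mouse feeder cells, of definitive endoderm (DE), of pancreatic progenitors at the second progenitor stage (PP2) and of β-like cells differentiated from hPSCs without an expansion step (SC-β). Batch 2 held 2 libraries each of expandable pancreatic progenitors (ePPs) at passage 9 (ePP-P9) and passage 21 (ePP-P21) and of β-like cells made from ePPs (ePP-β). The ePPs were kept on feeder cells in a medium that itself holds the BET bromodomain inhibitor I-BET151. Batch 3 held 2 libraries each of pancreatic progenitors treated for 7 days with the solvent DMSO or with 1 μM I-BET151. The labels do not say whether the replicates were separate cultures, so p-values measure only the spread between these libraries, which may be technical.

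Glycolysis splits glucose into pyruvate in the cytosol, and pyruvate is then either oxidised in mitochondria or reduced to lactate and exported. Mature β cells sense glucose by oxidising it, and they keep a set of "disallowed" genes very low that most other tissues express. The best known of these are LDHA, which makes lactate from pyruvate, and SLC16A1, a carrier of lactate and pyruvate. Most steps of the pathway are served by isoenzymes from separate genes, so the choice between isoforms is described beside their levels.

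Values are in TPM, the length-corrected abundance of a gene's transcripts relative to all others in the library, which allows levels of different genes to be set side by side. TPM holds no read number, so the depth is unknown and no counting interval is given. The sum over all listed genes ranged from 908685 to 985497 TPM among libraries, and ribosomal protein genes took 9.83% to 28.1% of it. The 4 hormone genes INS, GCG, SST and PPY took 2.79% and 3.32% of the listed TPM in the ePP-β libraries and 10.4% in SC-β. INS reached 10916 and 17374 TPM in the ePP-β libraries and 20658 TPM in SC-β, and GCG, the glucagon gene, 14107 and 13360 TPM and 74281 TPM, so GCG exceeded INS in SC-β and in 1 of the ePP-β libraries. All 10 genes of an endocrine marker list were called higher in ePP-β than in ePP. Genes were tested where they reached 1 TPM in 2 libraries. Among the 10, only CHGA and SCG2 did so within ePP, so the direction of the others was fixed. The libraries of batch 3 stood apart by replicate number. The 18 glycolytic enzymes from hexokinase to pyruvate kinase summed to 1.27% (DMSO) and 1.36% (I-BET151) of the listed TPM in the replicate 1 libraries, against 0.710% and 0.574% in the replicate 2 libraries. In bulk libraries such as these, fewer cells of a type and less RNA per cell cannot be told apart.

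**Figure D1:**
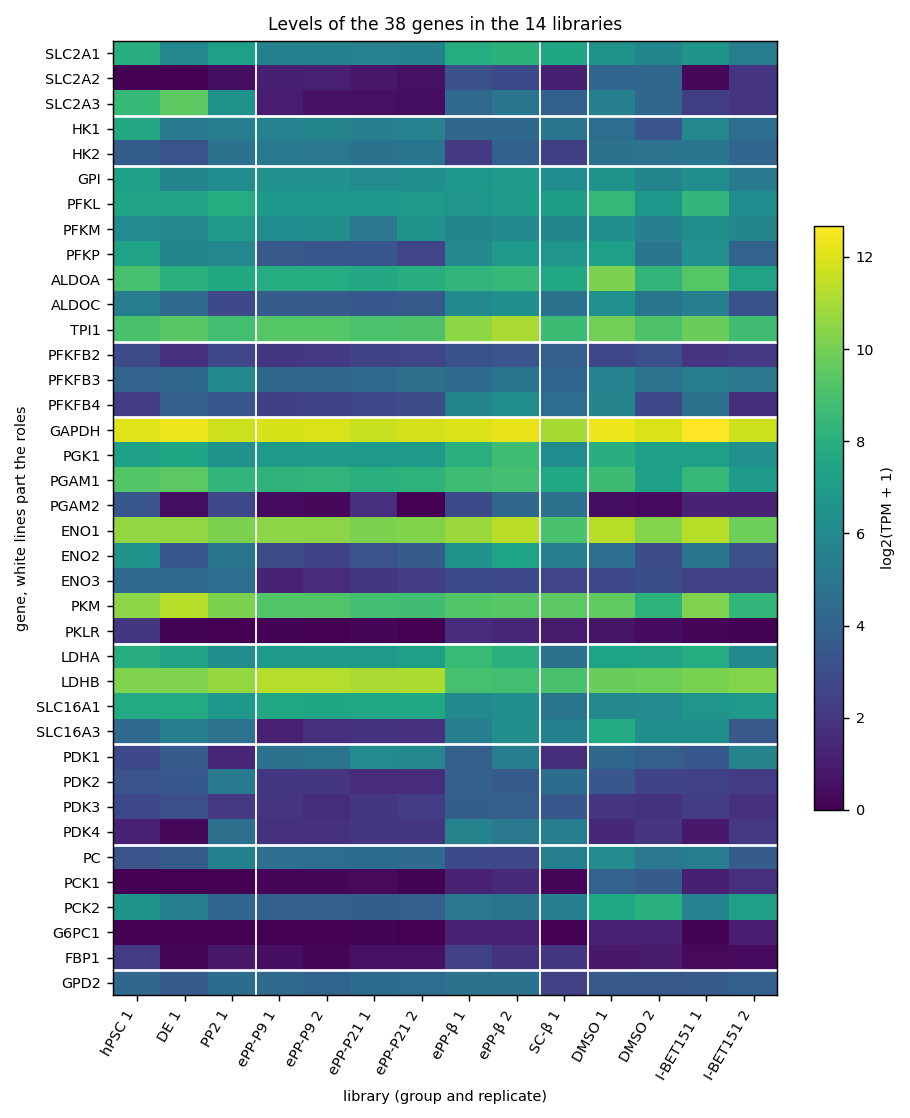
Heat map of log2(TPM + 1) for the 38 genes (rows, parted by role with white lines) in the 14 libraries (columns, vertical lines part the batches). GAPDH, ENO1, LDHB, PKM and TPI1 were the most abundant rows, whereas SLC2A3, PFKP, SLC16A3 and ENO2 were low in the 4 ePP libraries and higher in most other groups.

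The comparison of ePP-β with ePP asked how expression of these genes differed between β-like cells and the progenitors they were made from. The ePP medium held I-BET151, whereas the study lists none in the media used for differentiation. Cell state and exposure to the inhibitor therefore changed together and cannot be told apart here. Much of the set was higher in ePP-β, while HK1, HK2, LDHB, SLC16A1 and PC were lower. On the log2(TPM + 1) scale the largest rises were in the lactate exporter SLC16A3, the glucose transporter SLC2A3, the enolase ENO2 and the kinase PDK4. With limma on log2(TPM + 1), 21 of the 38 genes were called higher and 5 lower. A call needed an adjusted p (Benjamini-Hochberg) under 0.05 and a log2 fold change beyond 1. Among all 18076 genes tested, 17.9% were called higher and 9.86% lower. The median log2 fold change of the 38 genes was 1.20, against -0.03 over all genes tested. Of the 38 genes, 6 (SLC2A3, PGAM2, PKLR, PCK1, G6PC1 and FBP1) passed the filter of 1 TPM in 2 libraries only through the ePP-β libraries. All 6 are among the 21 called higher, a direction that the filter fixed. Of the other 32, 15 were called higher and 5 lower, with a median log2 fold change of 0.81. The choice of scaling moved the calls over all genes, of which 64.5% were higher as deposited, 55.2% after median centring, 47.5% after quantile normalization and 58.9% without ribosomal protein genes. The median of all genes moved by -0.14 on the log2 scale under median centring and by -0.16 under quantile normalization. The counts of calls by role below have the same background of 17.9% called higher and 9.86% called lower. Below, ePP values are given in the order ePP-P9 replicates 1 and 2, then ePP-P21 replicates 1 and 2.

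**Figure D2:**
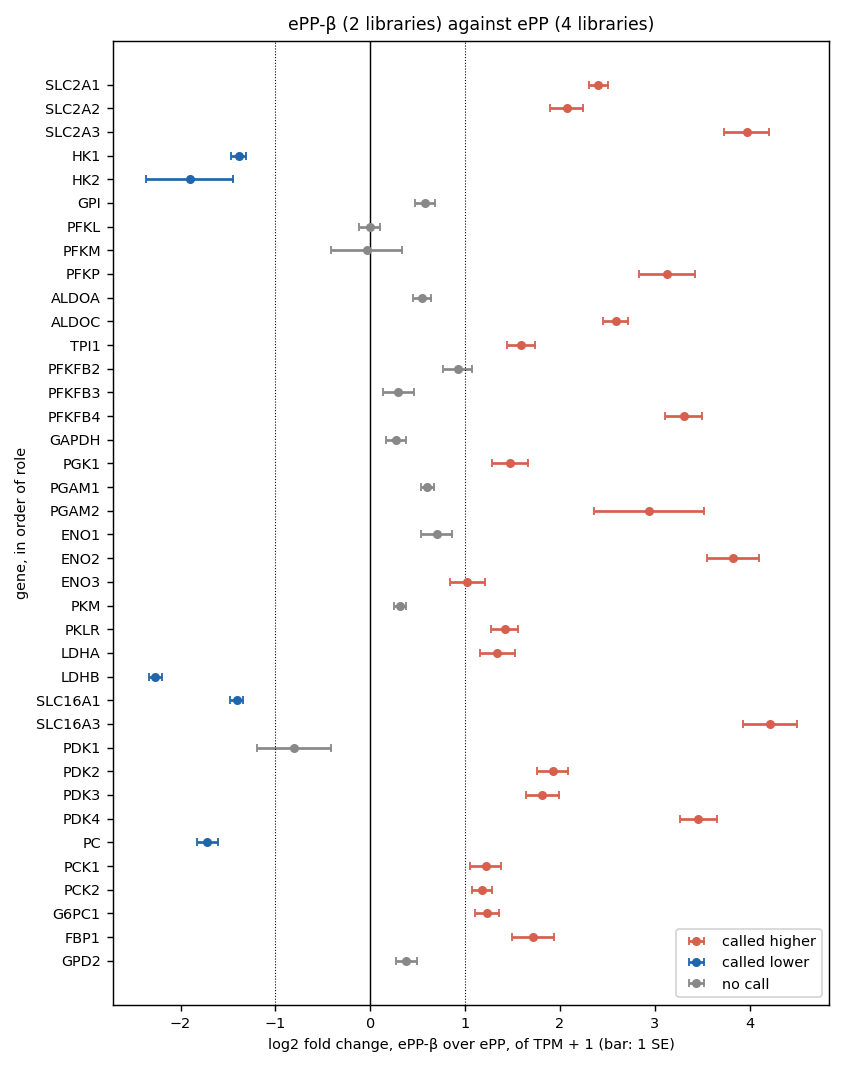
Log2 fold change of TPM + 1, ePP-β (2 libraries) over ePP (4 libraries), for each of the 38 genes in order of role. Points are limma estimates, bars 1 SE and dotted lines the limit of 1, with 21 genes called higher, 5 lower and 12 not called.

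All 3 glucose transporters were called higher, SLC2A3 with a direction that the filter fixed. SLC2A1 (GLUT1, ENSG00000117394, chromosome 1, 42925353 to 42958893 of GRCh38), the main glucose carrier of human β cells, was at 225 and 282 TPM in the ePP-β libraries against 46.6, 46.8, 47.9 and 46.2 TPM in ePP. The groups did not overlap, and the log2 fold change was 2.40 (SE 0.10, limma adjusted p = 1.92e-05). SLC2A3 (GLUT3), a high-affinity carrier known from neurons, was at 18.8 and 30.0 TPM in the ePP-β libraries against 0.970, 0.534, 0.494 and 0.392 TPM in ePP, a log2 fold change of 3.97 (SE 0.24). SLC2A2 (GLUT2), the low-affinity carrier of liver and of rodent β cells, was at 7.77 and 6.18 TPM against 0.490 to 1.22 TPM in ePP, a log2 fold change of 2.07 (SE 0.18). SLC2A1 therefore stayed the leading transporter transcript in both states. Its share of the summed TPM of the 3 genes was 95.7%, 96.4%, 97.4% and 98.1% in ePP and 89.5% and 88.6% in ePP-β.

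Both hexokinases of the set, which trap glucose in the cell as glucose 6-phosphate, were called lower. HK1 was at 17.7 and 17.6 TPM in the ePP-β libraries against 48.1, 51.0, 44.5 and 47.4 TPM in ePP, a log2 fold change of -1.39 (SE 0.08, adjusted p = 5.32e-05). HK2, the isoform of muscle and of many proliferating cells, was at 3.49 and 14.4 TPM in the ePP-β libraries against 33.9, 33.1, 25.2 and 28.9 TPM in ePP, a log2 fold change of -1.90 (SE 0.46, adjusted p = 0.0139). The ePP-β libraries lay below all ePP libraries for both genes, but they differed from each other in HK2, whose adjusted p was 0.0818 when no filter on low values was used. The HK1 share of HK1 + HK2 was 83.5% and 55.0% in ePP-β, on either side of the 58.6% to 63.8% seen in ePP. A further hexokinase gene outside the set, HKDC1, went the other way, at 8.58 and 9.63 TPM in the ePP-β libraries against 1.91 to 2.66 TPM in ePP (log2 fold change 1.56, SE 0.17, limma adjusted p = 0.000546), and it is not counted in this share.

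Of the 7 genes of upper glycolysis, 3 were called higher and none lower. The phosphofructokinases, which catalyse the committed step, differed in behaviour. PFKP, the platelet-type subunit, was at 61.9 and 109 TPM in the ePP-β libraries against 10.5, 9.53, 9.60 and 5.33 TPM in ePP (log2 fold change 3.13, SE 0.29, adjusted p = 0.000311). PFKL, the liver-type subunit, was at 95.1 and 122 TPM against 106 to 113 TPM, and PFKM, the muscle-type subunit, at 55.4 and 66.8 TPM against 31.8 to 87.9 TPM. For these the groups overlapped, with adjusted p of 0.975 and 0.939. PFKP made up 29.1% and 36.6% of the 3 phosphofructokinase transcripts in ePP-β and 2.59% to 6.51% in ePP, although a same-strand gene that overlaps PFKP (ENSG00000278419) moved with it, from 3.60 to 4.43 TPM in ePP to 23.7 and 53.0 TPM, and how reads were divided between such overlapping genes was not tested. The brain aldolase ALDOC was at 63.0 and 82.4 TPM against 10.3 to 11.7 TPM (log2 fold change 2.59, SE 0.13). TPI1, which interconverts the triose phosphates, was at 1480.3 and 2165 TPM against 532 to 644 TPM (1.59, SE 0.15). GPI and ALDOA had smaller differences, of 0.58 (adjusted p = 0.00455) and 0.54 (adjusted p = 0.00436) on the log2 scale. Each also overlaps a same-strand gene. The one at ALDOA (ENSG00000285043) was at 175 to 211 TPM in ePP and 252 and 320 TPM in ePP-β, and the one at GPI (ENSG00000266953) at 14.3 to 17.4 TPM and 23.5 and 25.9 TPM.

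The PFKFB enzymes set the level of fructose 2,6-bisphosphate, the activator of phosphofructokinase, and 1 of the 3 was called. PFKFB4 was at 51.1 and 73.9 TPM in the ePP-β libraries against 4.22, 5.08, 5.42 and 6.89 TPM in ePP (log2 fold change 3.30, SE 0.19, adjusted p = 5.57e-05). PFKFB2, whose product is abundant in heart, had a log2 fold change of 0.92 (SE 0.15), under the limit of 1, and the PFKFB3 groups overlapped at 20.7 and 28.2 TPM against 16.9 to 24.2 TPM.

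In lower glycolysis 5 of 9 genes were called higher and none lower. For PGAM2 and PKLR, which are among the 5, the filter fixed the direction. ENO2, the neuron-specific enolase that is also a marker of endocrine cells, was at 89.5 and 162 TPM in the ePP-β libraries against 6.53, 4.91, 8.44 and 11.9 TPM in ePP (log2 fold change 3.82, SE 0.27, adjusted p = 0.000108). Its share of the 3 enolases was 4.89% and 5.84% in ePP-β and 0.341% to 0.938% in ePP, and the ubiquitous ENO1 stayed far above it at 1734 and 2606 TPM against 1145 to 1435 TPM. PGK1, which makes the first ATP of the pathway, was at 260.2 and 424 TPM against 112 to 128 TPM (1.47, SE 0.19). GAPDH, often used as a reference gene, was at 4083 and 4779 TPM against 3149 to 3940 TPM, a log2 fold change of 0.27 that missed the threshold (adjusted p = 0.0747). PGAM2, the muscle-type phosphoglycerate mutase, was at 6.08 and 17.9 TPM and was listed at 0 to 2.25 TPM in ePP. ENO3, the muscle enolase, was at 6.07 and 5.85 TPM against 1.31 to 3.86 TPM, and its log2 fold change of 1.02 fell to 0.89 under median centring and 0.66 under quantile normalization.

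Pyruvate kinase came almost wholly from PKM. PKM was at 620 and 673 TPM in the ePP-β libraries against 594, 602, 457 and 446 TPM in ePP, a log2 fold change of 0.31 that had an adjusted p of 0.00682 but lay under the limit of 1. PKLR, the liver and red cell isoform, was at 2.00 and 1.61 TPM in ePP-β but was listed at 0 to 0.122 TPM in ePP. Its log2 fold change was 1.42 (SE 0.14), and 0.87 under quantile normalization. The PKLR share of PKM + PKLR was therefore 0.322% and 0.238% in ePP-β and no more than 0.0266% in ePP. Over the 18 glycolytic enzymes, the sum was 1.03% and 1.29% of the listed TPM in ePP-β and 0.679% to 0.822% in ePP.

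The lactate genes changed in both directions, and the members of each isoform pair moved in opposite directions, which brought their levels closer together. LDHA (ENSG00000134333, chromosome 11, 18394560 to 18408425), the isoform that favours lactate formation, was at 389 and 261 TPM in the ePP-β libraries against 123, 125, 110.5 and 145 TPM in ePP. Its log2 fold change was 1.34 (SE 0.18, adjusted p = 0.00142). LDHB (ENSG00000111716, chromosome 12, 21635342 to 21757857), the heart isoform that favours pyruvate, was at 499 and 453 TPM in the ePP-β libraries against 2445, 2419, 2119 and 2192 TPM in ePP, a log2 fold change of -2.26 (SE 0.07, adjusted p = 7.75e-06). LDHB made up 95.2%, 95.1%, 95.0% and 93.8% of the summed LDHA and LDHB transcripts in ePP, against 56.2% and 63.4% in ePP-β. A gene that overlaps LDHB on the same strand (ENSG00000285854) was at 386 to 450 TPM in ePP and at 92.0 and 81.9 TPM in ePP-β, so it moved the same way as LDHB.

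The carriers showed the same kind of split. SLC16A1 (MCT1, ENSG00000155380, chromosome 1, 112911847 to 112957593), which takes up and releases lactate and pyruvate, was at 64.7 and 73.0 TPM in the ePP-β libraries against 184, 182, 186 and 185 TPM in ePP (log2 fold change -1.41, SE 0.07, adjusted p = 3.37e-05). SLC16A3 (MCT4), the lactate exporter of strongly glycolytic cells, was at 42.1 and 76.8 TPM in the ePP-β libraries against 1.28, 2.29, 2.61 and 2.53 TPM in ePP (log2 fold change 4.21, SE 0.28, adjusted p = 8.83e-05). On the log2(TPM + 1) scale this was the largest fold change among the 38 genes in this comparison. As a ratio of mean TPM, SLC16A3 (27.3) lay below G6PC1 (74.6), SLC2A3 (40.8) and PKLR (37.1), which were under 1 TPM in ePP. The SLC16A1 share of the pair was 98.6% to 99.3% in ePP and 60.6% and 48.7% in ePP-β.

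**Figure D3:**
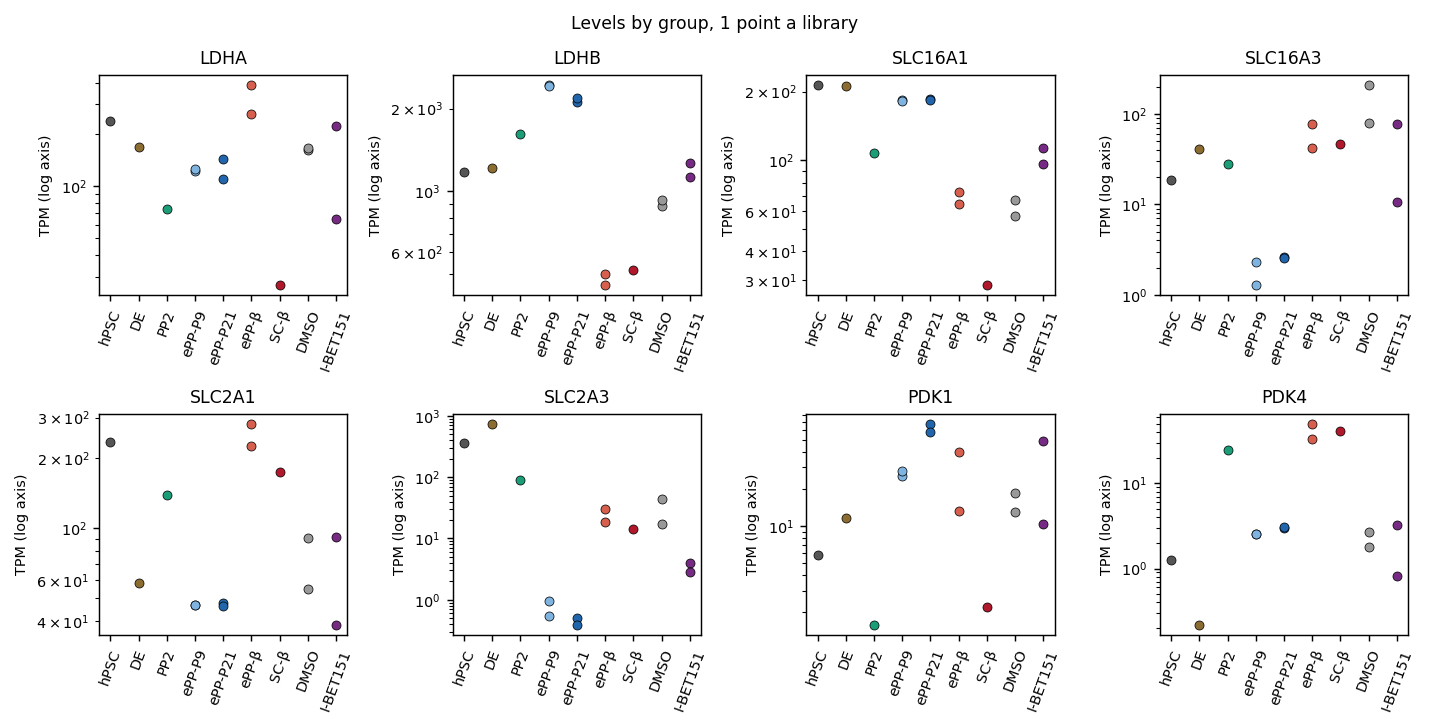
TPM (log axis) of the lactate dehydrogenases, lactate carriers, glucose transporters SLC2A1 and SLC2A3, and PDK1 and PDK4 in the 9 groups, 1 point a library. The ePP-β libraries lie above all ePP libraries in LDHA (389 and 261 TPM) and below them in LDHB (499 and 453 TPM), and the SC-β library is the lowest of all in LDHA at 26.7 TPM.

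The promoters of the 2 lactate dehydrogenases and of PGK1 are shown as examples. LDHA and LDHB moved in opposite directions, and PGK1 was 1 of the other genes called higher. The sequences are RefSeq reference sequence of GRCh38.p14, and each covers the 250 bases upstream of the RefSeq gene start, written 5′ to 3′ on the strand of the gene. The GENCODE models of LDHB and PGK1 begin further upstream, so these 2 windows lie inside them. Capitals mark ACGTG, the core that hypoxia-inducible factors recognise, or its reverse complement CACGT. The LDHA window is chr11:18394313-18394562 on the plus strand, the LDHB window chr12:21657843-21658092 on the minus strand and the PGK1 window chrX:78103998-78104247 on the plus strand.
LDHA: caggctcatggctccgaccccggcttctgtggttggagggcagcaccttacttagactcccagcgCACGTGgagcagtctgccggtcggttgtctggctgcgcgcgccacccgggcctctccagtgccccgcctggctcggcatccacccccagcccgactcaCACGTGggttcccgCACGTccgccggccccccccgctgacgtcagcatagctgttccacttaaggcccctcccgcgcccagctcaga
LDHB: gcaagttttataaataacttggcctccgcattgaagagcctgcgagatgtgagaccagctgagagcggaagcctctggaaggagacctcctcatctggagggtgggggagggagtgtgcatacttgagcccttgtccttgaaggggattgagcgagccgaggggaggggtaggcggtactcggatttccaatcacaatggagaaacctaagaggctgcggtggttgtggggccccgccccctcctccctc
PGK1: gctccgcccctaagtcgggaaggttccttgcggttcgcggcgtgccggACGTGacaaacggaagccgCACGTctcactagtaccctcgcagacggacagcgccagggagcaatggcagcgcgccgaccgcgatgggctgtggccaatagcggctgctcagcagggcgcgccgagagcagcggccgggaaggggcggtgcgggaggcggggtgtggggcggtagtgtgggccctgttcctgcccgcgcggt
LDHA held 5 matches, beginning 185, 184, 87, 86 and 73 bases before the gene start, where the pairs at adjacent positions are both strands of 1 CACGTG palindrome. PGK1 held 2 matches, at 202 and 183 bases, and LDHB held 0. Of the 34 genes of the set with a window in the table, 12 (35.3%) held ACGTG on either strand, against 18.7% of 27305 promoters, which were not selected by gene type. Among the 12 were 7 of the 19 genes with a window that were called higher in ePP-β and 2 of the 4 called lower, HK2 and PC. The other genes called higher, such as SLC2A1, PFKP, TPI1, PFKFB4, SLC16A3 and PDK4, held no ACGTG in their windows. CACGTG was in 11.8% of the windows of the set and 6.49% of all promoters, the cyclic AMP response element TGACGTCA in 2.94% and 1.77%, and GTTAAT, part of the site of hepatocyte nuclear factor 1, in 2.94% and 6.22%. These are matches of letters, with no test and no evidence of binding.

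**Figure D4:**
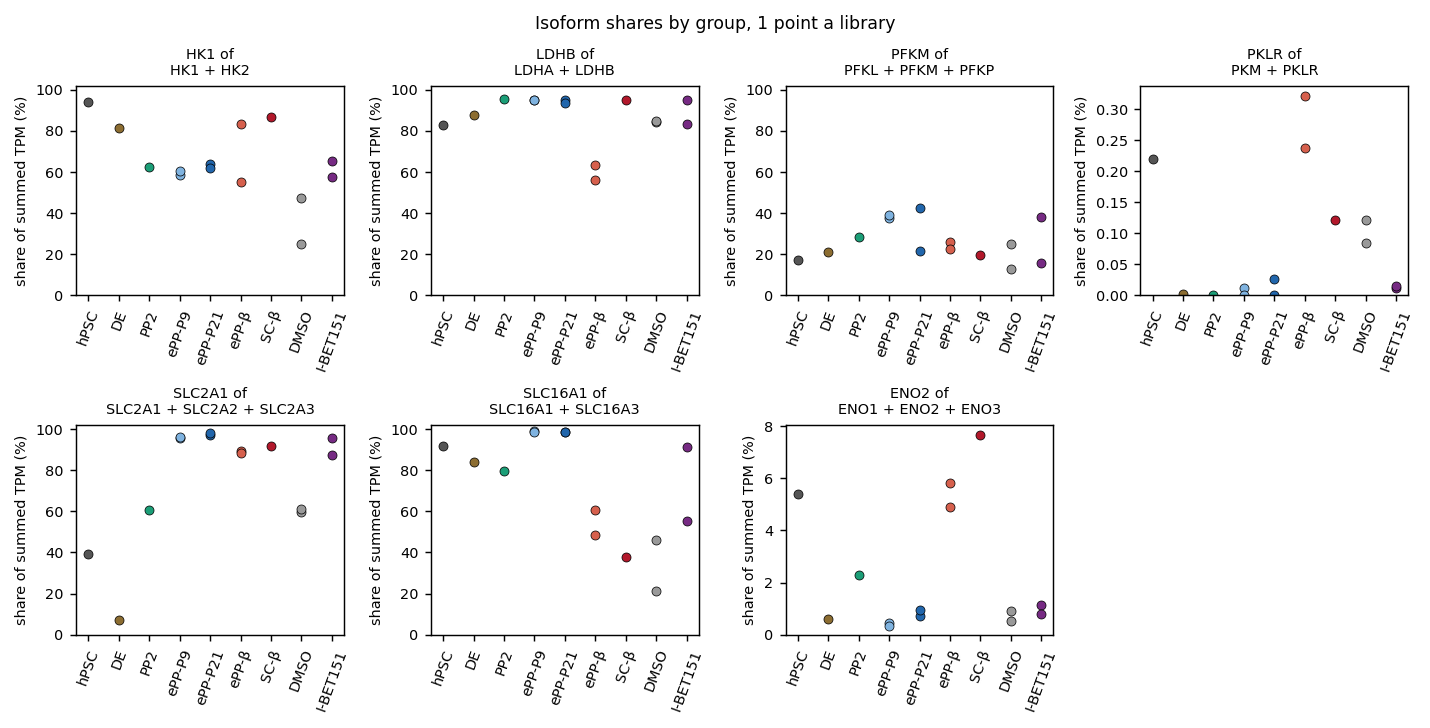
Share of the summed TPM (%) that each named isoform takes of its family, by group, 1 point a library. The LDHB share was 93.8% to 95.2% in ePP and 56.2% and 63.4% in ePP-β, and the SLC16A1 share 98.6% to 99.3% and 60.6% and 48.7%, while the HK1 and PFKM shares overlapped between these groups.

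The 7 isoform shares were compared over libraries with a two-sided exact permutation test. With 4 against 2 libraries the smallest p it can give is 0.133, so no share could pass 0.05. For 5 shares (LDHB, PKLR, SLC2A1, SLC16A1 and ENO2) the groups did not overlap, with exact p = 0.133 and p = 0.187 after Benjamini-Hochberg adjustment over the 7. The LDHB share differed by -35.0 percentage points, from 94.8% ± 0.662 (SD, n = 4) to 59.8% ± 5.13 (SD, n = 2), and the SLC16A1 share by -44.2 points, from 98.8% ± 0.325 to 54.6% ± 8.38. The groups overlapped in the HK1 share (exact p = 0.667) and in the PFKM share (exact p = 0.400).

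The pyruvate dehydrogenase kinases, which phosphorylate and switch off the complex that admits pyruvate to mitochondrial oxidation, also differed in isoform make-up. PDK4, the isoform induced in fasting, was at 50.1 and 32.8 TPM in the ePP-β libraries against 2.54, 2.51, 3.04 and 3.10 TPM in ePP (log2 fold change 3.46, SE 0.20, adjusted p = 4.96e-05). PDK2 and PDK3 were also called higher, with log2 fold changes of 1.92 (SE 0.16) and 1.81 (SE 0.17). PDK1 was not called (adjusted p = 0.128). Its ePP-β libraries differed from each other (13.3 and 39.6 TPM) and overlapped the ePP range of 25.6 to 67.5 TPM. PDK1 was the leading kinase transcript in ePP, at 75.0% to 89.2% of the 4 kinases, and was at 14.9% and 41.0% in ePP-β, where PDK4 took 55.9% and 34.0%.

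Among the genes of anaplerosis and gluconeogenesis 4 of 5 were called higher and 1 lower, but 3 of the 4 (PCK1, G6PC1 and FBP1) are genes that passed the filter only through the ePP-β libraries. PC, the pyruvate carboxylase that feeds oxaloacetate into the citric acid cycle and is abundant in mature β cells, was at 6.22 and 5.70 TPM in the ePP-β libraries against 24.1, 21.8, 20.97 and 20.7 TPM in ePP (log2 fold change -1.72, SE 0.11, adjusted p = 7.39e-05). PCK2, the mitochondrial phosphoenolpyruvate carboxykinase, was at 32.2 and 28.3 TPM against 12.4 to 13.5 TPM (1.18, SE 0.11). The liver and kidney genes of the pathway reached only low levels. FBP1 (fructose bisphosphatase) was at 4.71 and 2.66 TPM against 0.177 to 0.499 TPM, PCK1 at 1.38 and 1.93 TPM against 0.0350 to 0.236 TPM, and G6PC1 (glucose 6-phosphatase) at 1.35 and 1.43 TPM against values listed at 0 to 0.0747 TPM. PCK1 and G6PC1 had log2 fold changes of 1.22 and 1.23, which were 0.61 and 0.71 under quantile normalization. GPD2, the mitochondrial enzyme of the glycerol phosphate shuttle that passes cytosolic electrons to the respiratory chain, was at 26.5 and 25.0 TPM against 16.0 to 22.0 TPM (0.38, adjusted p = 0.0293).

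Other gene lists moved in the same comparison. Of 18 hypoxia response genes, 12 were called higher and 0 lower (limma, median log2 fold change 1.38), against 17.9% and 9.86% of all genes, which is also the background of the lists that follow. The hypoxia genes were led by EGLN3 (3.92), BHLHE40 (3.62), BNIP3 (2.81) and ADM (2.26). Their summed level was 1263 to 2022 TPM in ePP-β and 445 to 624 TPM in ePP, and CA9, a defining target of the hypoxia response, reached 2.45 and 5.46 TPM in ePP-β but was listed at 0 to 0.0964 TPM in ePP. Of 13 hepatocyte and enterocyte markers, 12 were called higher and 1 lower, and they summed to 16346 to 19284 TPM against 378 to 446 TPM. TTR, which islet endocrine cells also express, made up 13015 and 15556 TPM of this in ePP-β, and the 12 genes without it summed to 3331 to 3728 TPM against 367 to 423 TPM. All 6 proliferation markers were called lower, with a sum of 260.1 to 272 TPM against 695 to 787 TPM. The mesenchymal and feeder markers summed to 43.2 to 55.6 TPM in ePP-β and 46.3 to 72.1 TPM in ePP, 1 of the 6 tested being called higher and 1 lower. Some of the genes called higher passed the filter only through the ePP-β libraries, which fixed their direction. They were BHLHE40 and CA9 (hypoxia), ALB and APOA4 (hepatocyte and enterocyte) and TWIST1 (mesenchymal and feeder). The part of these lists in the results for the 38 genes was not tested.

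Genes of neighbouring pathways were followed as a list. Of 49 further carbohydrate genes, 40 were tested, 7 were called higher and 4 lower, with a median log2 fold change of 0.25. These counts are close to the 17.9% and 9.86% of all genes. Among those called higher was GPD1, the cytosolic partner of GPD2 in the glycerol phosphate shuttle, at 67.8 and 61.9 TPM in ePP-β and 0.411 to 0.513 TPM in ePP (log2 fold change 5.48, SE 0.15). GPD1, SLC16A4 and SLC25A12 passed the filter only through the ePP-β libraries, which fixed their direction.

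The comparison of ePP-P21 with ePP-P9 asked whether expression of these genes differed between late and early passage. Of the 32 genes tested, 1 was called higher and 0 lower (limma), against 1.07% and 0.0569% of all 15822 genes. The calls over all genes depended on the scaling, with 169 higher and 9 lower as deposited, 10 and 3 after quantile normalization, and 0 in limma after median centring, where 4176 genes had an unadjusted p under 0.05. As deposited, 9 of the 32 genes and 23.0% of all genes had an unadjusted p under 0.05. The gene called was PDK1, at 67.5 and 58.4 TPM at passage 21 and 25.6 and 28.0 TPM at passage 9, a log2 fold change of 1.20 (SE 0.12, adjusted p = 0.0319). The call was lost under median centring (adjusted p = 0.0648), quantile normalization (0.0561) and without either ePP-P21 library (0.104 and 0.131). The PDK1 share of the 4 kinases was 89.2% and 86.7% at passage 21 against 75.0% and 78.6% at passage 9. PKM (log2 fold change -0.40, adjusted p = 0.0513) and ENO1 (-0.25, adjusted p = 0.135) did not pass the test, and LDHA had a log2 fold change of 0.03 (adjusted p = 0.932). PFKM was at 31.8 and 87.9 TPM in the ePP-P21 libraries, a wider spread than the 71.6 and 75.7 TPM at passage 9. The 32 genes had a median log2 fold change of -0.08 and all genes one of 0.13. The latter moved by -0.20 under median centring and by -0.16 under quantile normalization. VEGFA, 1 of 16 hypoxia response genes tested, was the only one of that list called (log2 fold change 1.29, adjusted p = 0.0350).

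The comparison of I-BET151 with DMSO asked how 7 days of BET inhibition affected expression in progenitors. With limma, 0 of the 36 genes tested were called in either direction, against 0.00599% of all 16687 genes called higher and 0.204% called lower. With so few calls over all genes, the 0 does not show that the 36 were unchanged. The study, using DESeq2 at the same limits, reported many more changed genes for this treatment. At an unadjusted p under 0.05 there were 5 of the 36 genes and 15.2% of all genes. The spread between replicates was large in this batch. ALDOA, for example, was at 1153 and 307 TPM with DMSO and 640 and 154 TPM with I-BET151, and PFKFB4 was at 50.4 and 5.70 TPM and at 25.3 and 2.19 TPM.

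The 5 genes at an unadjusted p under 0.05 were SLC2A2, SLC2A3, PCK1, PFKFB2 and PGAM2. SLC2A2 was at 16.5 and 17.6 TPM with DMSO and 0.218 and 2.74 TPM with I-BET151 (log2 fold change -3.08, SE 0.59, adjusted p = 0.112). SLC2A3 was at 44.6 and 17.0 TPM and at 4.04 and 2.79 TPM (-2.71, SE 0.53, adjusted p = 0.116). PCK1 was at 14.9 and 12.1 TPM and at 1.13 and 2.25 TPM (-2.46, SE 0.36, adjusted p = 0.0795). PFKFB2 was at 5.59 and 7.62 TPM and at 2.79 and 3.37 TPM, and PGAM2 at 0.400 and 0.286 TPM and at 1.42 and 1.40 TPM. PGAM2 was the only one of the 5 that was higher with I-BET151, and it passed the filter only through the I-BET151 libraries. SLC2A2 passed the filter only through the DMSO libraries, so the direction of both was fixed. SLC2A1, in contrast, was at 91.1 and 54.9 TPM with DMSO and 91.8 and 38.5 TPM with I-BET151. Its share of the 3 transporters was 59.9% and 61.3% in DMSO and 95.6% and 87.4% in I-BET151, next to 95.7% to 98.1% in ePP.

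None of the lactate genes was called in this batch. LDHA was at 163 and 167 TPM with DMSO, between the 225 and 65.1 TPM of the I-BET151 libraries (log2 fold change -0.44, adjusted p = 0.793). SLC16A3 was at 212 and 79.2 TPM with DMSO and 77.6 and 10.8 TPM with I-BET151, and SLC16A1 at 57.3 and 67.1 TPM and at 96.1 and 114 TPM, with adjusted p of 0.405 and 0.351. LDHB was at 886 and 925 TPM with DMSO and 1122 and 1270.5 TPM with I-BET151 (adjusted p = 0.608). HK1 was at 23.2 and 9.07 TPM and at 57.6 and 22.6 TPM (adjusted p = 0.432). PCK2 was at 191 and 276 TPM in DMSO, the highest levels among the 9 groups, and at 47.4 and 145 TPM in I-BET151. The hepatocyte and enterocyte markers summed to 13068 to 13881 TPM in DMSO and 1552 to 3856 TPM in I-BET151, and the hypoxia response genes to 973 to 1620.2 TPM and 682 to 740 TPM. Their part in these differences was not tested.

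The single libraries of batch 1 showed the pathway along direct differentiation, with no replicate check and no test. A gene was counted where it reached 1 TPM in either group, with a difference of log2(TPM + 1) beyond 1. From hPSC to DE, 3 of 35 genes were higher and 11 lower, against 10.8% and 16.1% of all genes. PGAM2, PKLR and FBP1, among the 11, reached 1 TPM only in hPSC, which fixed their direction. SLC2A3 went from 363 to 740 TPM, while SLC2A1 went from 236 to 58.0 TPM, HK1 from 198 to 37.7 TPM and ENO2 from 91.2 to 9.89 TPM. The SLC2A1 share of the transporters was 39.4% in hPSC and 7.27% in DE. From DE to PP2, 8 of 33 genes were higher and 9 lower, against 27.2% and 9.83% of all genes. Genes of abundant enzymes were among the lower ones, such as PKM (2570.1 to 1138 TPM), PGAM1 (712 to 322 TPM) and PGK1 (181 to 88.6 TPM), together with SLC2A3 (740 to 89.7 TPM) and LDHA (169 to 74.4 TPM). The higher ones included PDK4 (0.219 to 24.4 TPM), PDK2 (10.1 to 37.4 TPM) and PC (11.5 to 46.7 TPM). PDK4 and PGAM2, among the 8, reached 1 TPM only in PP2, which fixed their direction.

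SC-β was then set beside PP2, the progenitor stage of the direct route, again with 1 library each. Of 35 genes, 7 were higher and 10 lower in SC-β, against 12.7% and 22.1% of all genes, with a median of -0.18 for the 35 genes and -0.37 for all genes. Both disallowed genes of the set were lower. LDHA went from 74.4 to 26.7 TPM and SLC16A1 from 108 to 28.4 TPM, and both SC-β values were the lowest of all 14 libraries. LDHB went from 1610 to 517 TPM, HK2 from 25.5 to 4.36 TPM, SLC2A3 from 89.7 to 14.4 TPM and GPD2 from 21.4 to 4.45 TPM. Among the higher genes were ALDOC (6.06 to 25.4 TPM), PGAM2 (5.77 to 25.2 TPM), PCK2 (16.8 to 43.4 TPM) and PFKFB4 (9.41 to 22.4 TPM). FBP1, also among the 7 higher genes, reached 1 TPM only in SC-β, which fixed its direction. SC-β was the lowest of the 14 libraries for 7 of the 38 genes (TPI1, GAPDH, PGK1, ENO1, LDHA, SLC16A1 and GPD2), and its 18 glycolytic enzymes summed to 0.486% of the listed TPM, also the lowest. How often SC-β was the lowest over all genes was not counted, so the 7 cannot be read as a trait of these genes. The SC-β library held 2682 TPM of the mesenchymal and feeder markers and PP2 1489 TPM, and hormone genes took 10.4% of the listed TPM in SC-β and 0.000193% in PP2. The part of either in these differences was not tested.

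The β-like cells of the 2 routes differed mostly in one direction. Relative to SC-β, 15 of the 38 genes were higher in ePP-β and 2 (PC and PGAM2) were lower, against 19.0% and 17.9% of all genes, with a median difference of 0.61 for the 38 genes and 0.17 for all. These groups came from different batches, so batch and group cannot be told apart, and the values are given without a test. PCK1 and G6PC1, among the 15, reached 1 TPM only in ePP-β, which fixed their direction. LDHA reached 389 and 261 TPM in ePP-β but 26.7 TPM in SC-β, PDK1 13.3 and 39.6 TPM but 2.19 TPM, and PGK1 260.2 and 424 TPM but 70.6 TPM. TPI1 reached 1480.3 and 2165 TPM in ePP-β but 411 TPM in SC-β, and ENO1 1734 and 2606 TPM but 521 TPM. PC went the other way, at 6.22 and 5.70 TPM in ePP-β and 43.6 TPM in SC-β, close to the 46.7 TPM of PP2. LDHB was alike in level, at 499 and 453 TPM in ePP-β and 517 TPM in SC-β. With LDHA so low, the LDHB share was 95.1% in SC-β. Several other genes lay close together, among them SLC2A1 (225 and 282 TPM against 175 TPM), PDK4 (50.1 and 32.8 TPM against 41.3 TPM) and SLC16A3 (42.1 and 76.8 TPM against 46.8 TPM). The ePP-β libraries held 43.2 to 55.6 TPM of the mesenchymal and feeder markers against 2682 TPM in SC-β, and 43455 to 48234 TPM of endocrine markers against 114785 TPM. The hypoxia response genes summed to 1263 to 2022 TPM in ePP-β and 969 TPM in SC-β. VEGFA alone made up 548 TPM of the SC-β sum, and the 17 genes without it summed to 1060.4 to 1642 TPM in ePP-β and 421 TPM in SC-β. Their part in the differences was not tested.

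The change from progenitor to β-like cell was compared between the routes, ePP to ePP-β and PP2 to SC-β. In both, 12 of the 38 genes differed by more than 1 on the log2(TPM + 1) scale. For 9 of them the direction was shared, with ALDOC, PFKFB4, PGAM2, PDK3, PCK2 and FBP1 higher in both β-like cells and HK2, LDHB and SLC16A1 lower. For 3 (SLC2A3, ENO3 and LDHA) the direction was opposite. A gene under 1 TPM cannot fall by more than 1 on this scale. FBP1 averaged under 1 TPM in ePP and PP2, and SLC2A3 and PGAM2 did so in ePP. The direction of their rises from those progenitors was therefore fixed. Over all 20258 genes that reached 1 TPM on average in any of the 4 groups, 13.1% differed by more than 1 in both routes, and 90.7% of those shared their direction, a larger share than the 9 of 12 here. The ePP libraries started from other levels than PP2. SLC2A3 was at 0.392 to 0.970 TPM in ePP and 89.7 TPM in PP2, SLC16A3 at 1.28 to 2.61 TPM and 27.8 TPM, PDK4 at 2.51 to 3.10 TPM and 24.4 TPM, and PFKP at 5.33 to 10.5 TPM and 56.5 TPM, so that the rises of these genes in ePP-β ended near the SC-β level.

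**Figure D5:**
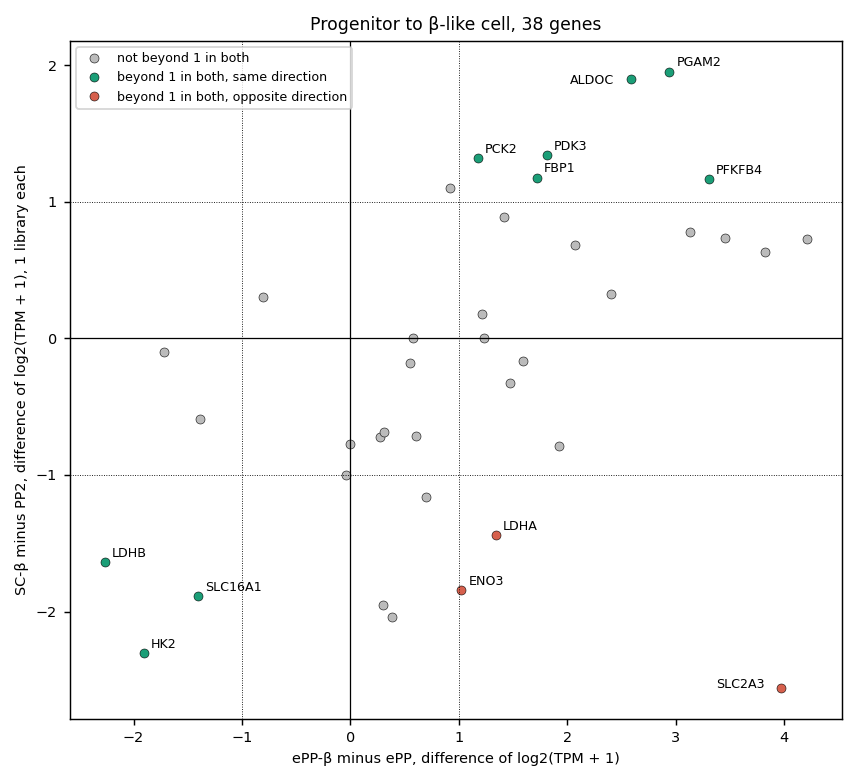
Difference of log2(TPM + 1) between β-like cell and progenitor for the 38 genes, in the ePP route (x axis, 2 against 4 libraries) and the direct route (y axis, 1 library each). The named genes are the 12 beyond 1 in both, of which 9 share their direction and 3 (SLC2A3, ENO3 and LDHA) do not.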

How the data were processed

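Total RNA from MEL1-derived cells was made into NEBNext Ultra libraries and sequenced as paired ends. The authors aligned reads to GRCh38 (hg38) with HISAT2 2.1.0, assembled transcripts with StringTie and deposited TPM values per gene identifier. The annotation release and the strand setting of this step are not given in the sources used here. The authors used DESeq2 for their own tests, which needs counts and was not used here.

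Symbols, positions and biotypes came from GENCODE release 44, which matched 60370 of 60624 identifiers. Groups and replicate numbers came from sample titles and batches from the descriptions. An exact 0 is reported only as listed at 0, since the 37 mitochondrially encoded genes carried a 0 throughout. Read depth is not recoverable from TPM, and precision rests on 2 libraries per group.

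Genes were kept if 2 or more libraries of a fit reached 1 TPM, transformed as log2(TPM + 1), and fitted with limma 3.58.1 (R 4.3.3, eBayes with an intensity trend), using only the groups compared. Fold changes on this scale understate the change of low genes. Both passages carried equal weight in the ePP level. Calls needed an adjusted p under 0.05 (Benjamini-Hochberg over all genes tested) and a log2 fold change beyond 1, two-sided. Isoform shares, as percent of summed TPM, were compared by exact permutation over libraries (scipy 1.17.1). Single-library groups and comparisons across batches were described only. Promoters came from a RefSeq table of GRCh38.p14, in which 34 of the 38 genes had a window. The code was tested on simulated data. Alternatives were pseudocounts of 0.1 and 0.01, no filter, a filter of 5 TPM, median centring, quantile normalization, TPM without ribosomal protein genes, no intensity trend, a replicate block, all 10 replicated libraries in 1 fit, the adjusted p alone, and leaving out each library. Values per library are given for the isoform families and the called genes, and other genes were named from fixed lists as those with the largest called fold changes, except CA9 as a defining hypoxia target. The members and lists were chosen with earlier results of these data known. The counts without the genes that passed the filter through 1 group, the sums without TTR or VEGFA, and the shares over all genes in both routes were added after seeing the data.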

Additional observations from a re-analysis of the deposited data

Results flagged for a closer look

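For 3 genes the change from progenitor to β-like cell went in opposite directions in the 2 routes, by more than 1 on the log2(TPM + 1) scale in each, with both ePP-β libraries on one side of all 4 ePP libraries. The limit of 1 was set with the data in view, the direct route has 1 library per stage, the routes came from different batches, and the difference between the routes was not tested. SLC2A3 was higher in ePP-β than in ePP (log2 difference 3.97) and lower in SC-β than in PP2 (log2 difference -2.56), a difference of 6.53 between the routes, although both β-like states ended within 14.4 to 30.0 TPM. LDHA was higher in ePP-β (1.34) and lower in SC-β (log2 difference -1.44), a difference of 2.78, and here the end levels lay apart, at 389 and 261 TPM in ePP-β and 26.7 TPM in SC-β. ENO3 was higher in ePP-β (1.02) and lower in SC-β (log2 difference -1.85), a difference of 2.87, with end levels of 5.34 to 6.07 TPM. SLC2A3 and ENO3 therefore met at like levels from different starting points, and LDHA did not. SLC2A3 was under 1 TPM in all ePP libraries and could not have fallen by more than 1 there, so that direction was fixed.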

How the results depend on the processing

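The 26 calls between ePP-β and ePP became 22 to 27 under the settings that kept all libraries and the adjusted p with its fold limit, 33 with the adjusted p alone, and 21 to 26 when 1 library was left out. Without either ePP-β library only 33 of the 38 genes could be tested. The median log2 fold change of 1.20 was 0.97 with a filter of 5 TPM, 0.79 after quantile normalization, and 0.84 to 1.21 with 1 library left out. The single call between passages (PDK1) became 0 with no filter, after median centring, after quantile normalization, without the intensity trend and in the fit of all 10 replicated libraries, and lay between 0 and 1 with 1 library left out. The median for that comparison was -0.29 after median centring. The 0 calls between I-BET151 and DMSO became 9 with the replicate block (1 higher and 8 lower), 3 in the fit of all 10 replicated libraries, and 0 to 5 with 1 library left out. Those calls appeared without DMSO replicate 2 (3), without I-BET151 replicate 1 (5) and without I-BET151 replicate 2 (5), and the lone remaining library was then assumed to vary like the other group. Their median was -0.28 and ranged from -0.79 (without I-BET151 replicate 1) to 0.18 (without I-BET151 replicate 2), so its sign depended on single libraries. The difference between replicates 2 and 1 correlated across genes at r = 0.675 between DMSO and I-BET151, and at -0.0093 between ePP-P9 and ePP-P21. Only 2 pairs exist, so the numbers are not taken as pairing the libraries. The replicate block left the ePP-β calls at 26 and the passage call at 1. No single-library count moved beyond its limit under its alternatives. For the isoform shares the limit was the larger SD of the 2 groups. Leaving out libraries could not shift a difference that far, so this check decides nothing for the shares. The HK1 share was 83.5% in ePP-β replicate 1 and 55.0% in replicate 2, on either side of the ePP mean of 61.3%. The direction of its difference therefore depended on single libraries. Among the called genes taken singly, 280 values under settings other than leaving out a library stayed called, 13 did not, and none of these changed direction. ENO3 had a log2 fold change under 1 without ePP-P9 replicate 1 (0.93), ePP-P21 replicate 1 (0.96) or ePP-β replicate 1 (0.998), and PGAM2 had an adjusted p of 0.0636 in limma with a pseudocount of 0.01. Depth limits cannot be given for TPM.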

Other observations

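A list of 17 other genes described as disallowed in β cells was also followed. Of the 14 tested between ePP-β and ePP, 3 were called higher and 5 lower (limma), against 17.9% and 9.86% of all genes, with a median log2 fold change of -0.32. The largest changes were in CXCL12, a chemokine, at 200.4 and 231 TPM in ePP-β and 0.677 to 1.43 TPM in ePP, and in FCGRT, the neonatal Fc receptor, with a log2 fold change of 3.11 (SE 0.23). CXCL12 passed the filter only through the ePP-β libraries, which fixed its direction. LMO4 (-1.29) and IGFBP4 (-1.25) were the genes with the largest falls. The SC-β library held CXCL12 at 279 TPM and a summed level of 1412 TPM for the list, the highest of the 9 groups, next to its 2682 TPM of mesenchymal and feeder markers. The part of those markers in this sum was not tested.

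The other pathway genes in the I-BET151 experiment gave 0 calls of 43 tested. HKDC1, a hexokinase-like gene of liver and gut, was at 63.6 and 47.2 TPM in DMSO and 4.03 and 7.92 TPM in I-BET151 (log2 fold change -3.06, SE 0.41, limma adjusted p = 0.0698), and it was chosen here after its values were seen.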
